A study of Homo sapiens with 2 samples.

Results

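The insulin-like growth factor (IGF) axis was examined in H322c cells, an established NSCLC cell line, through 10 genes chosen by name: the ligands IGF1 and IGF2, the receptors IGF1R and IGF2R, and the binding proteins IGFBP2, IGFBP3, IGFBP4, IGFBP5, IGFBP6 and IGFBP7. They stand among 19775 genes that have a probe set of their own on the array. The treated cells were cultured for 4 days with 1 µM gefitinib, an inhibitor of the EGFR kinase, and the control cells for 4 days with 0.1% DMSO. Both had been plated 24 hrs earlier in the same serum-containing medium. Each condition was measured on 1 Affymetrix U133 Plus 2.0 array, so no test was possible, every difference describes these 2 arrays, and drug, culture and array cannot be told apart. The question asked of the arrays here is which RNAs of the IGF axis differed between gefitinib and DMSO.

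IGF1 and IGF2 are secreted peptides that activate IGF1R, a receptor tyrosine kinase that signals through IRS adaptors, PI3K and AKT and through RAS and ERK. IGF2R has no kinase domain and carries IGF2 to the lysosome. Outside the cell most IGF is held by the IGF binding proteins, which keep it from the receptor or store it near the cell surface until proteases cut them, and several of them also act without IGF. IGFBP7 is a more distant relative that binds IGFs weakly.

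On the gefitinib array 3 binding proteins were at least 2-fold higher: IGFBP5 by at least 30.4-fold, IGFBP2 by 4.17-fold and IGFBP3 by 3.87-fold. The receptors IGF1R and IGF2R were within 2-fold, and no measured member was at least 2-fold lower. IGFBP6, IGFBP7 and IGF1 were below the signal floor on both arrays, and IGF2 has no probe set of its own. The 3 probe sets that IGF2 shares with the read-through gene INS-IGF2 were 2.11-fold to 3.32-fold lower and count for no gene. Of the 10 members, 6 were measured, which means that a probe set reached a signal of 100 on at least 1 array. Signals under 100 were raised to this floor, so a fold with 1 signal under it can only understate the difference and is given as "at least". Among all 11223 measured genes, 13.3% were at least 2-fold higher and 6.20% at least 2-fold lower. IGFBP4 and IGFBP5 passed the floor only through the gefitinib array, so their ratios could only lie above 1. The median log2 ratio was 1.37 over the 6 measured members and 0.12 over all measured genes. The members were chosen with earlier results of these data known, so the values over all genes are given for scale.

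**Figure D1:**
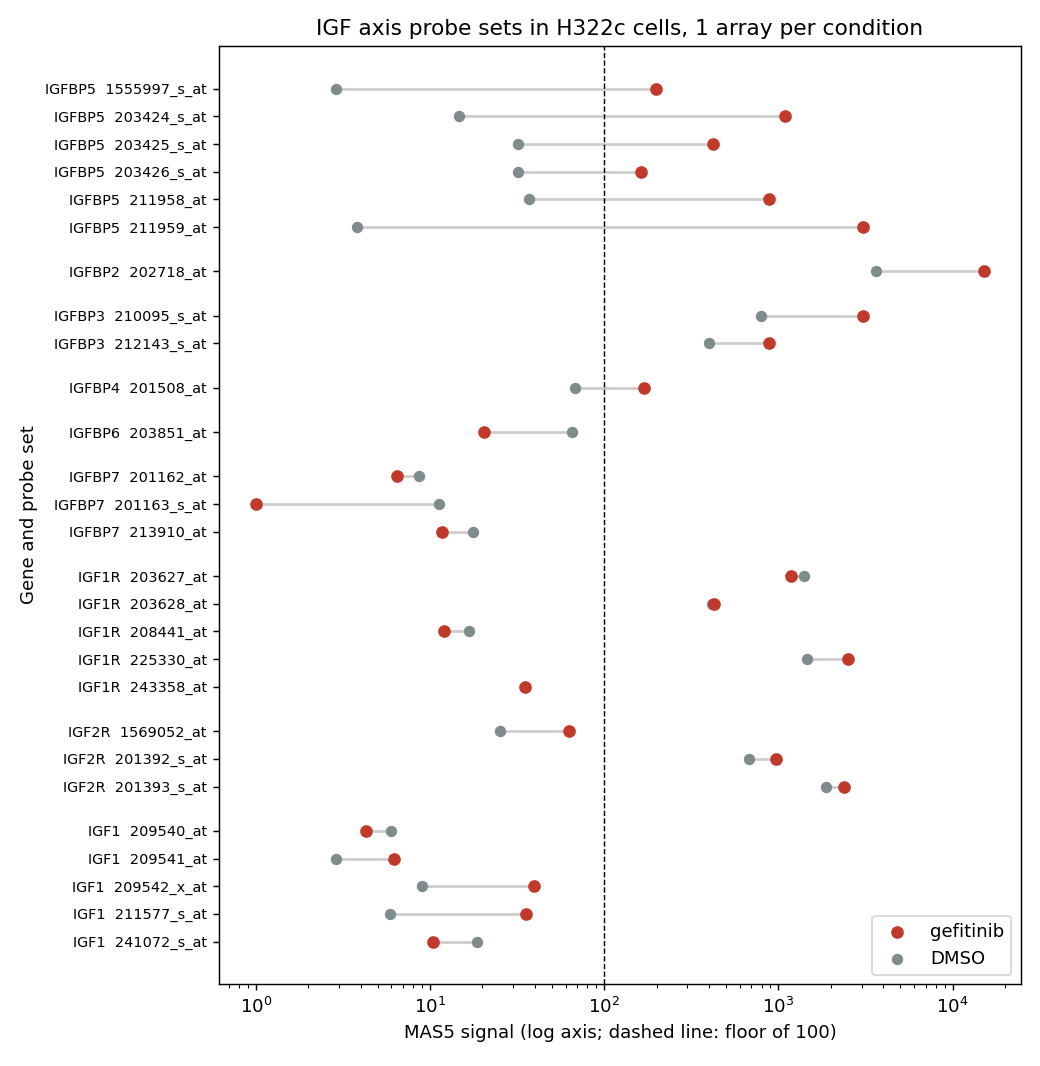
MAS5 signal (horizontal log axis) of the 27 probe sets annotated to a single member, with the gefitinib array in red and the DMSO array in grey. A dashed line marks a signal of 100, the floor, to the left of which signals have no order; the 6 IGFBP5 probe sets lie left of it with DMSO and right of it with gefitinib.

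The stretches of DNA before the start sites of the higher binding proteins are shown, since these genes moved in the same direction and a reader may want to set their promoters side by side. They are RefSeq sequences on GRCh38.p14, each the 250 bases before an annotated start, given on the strand of the gene. Capitals mark the GC box GGGCGG, found on either strand, and a TATA-like TATNNA on the strand of the gene that begins 20 to 40 bases before the start. The looser spelling of this motif was chosen after the IGFBP5 sequence had been read. RefSeq gives IGFBP2 3 starts, and the one with the highest GC content, 69.2%, is printed.
IGFBP5, chr2:216695550-216695799, minus strand: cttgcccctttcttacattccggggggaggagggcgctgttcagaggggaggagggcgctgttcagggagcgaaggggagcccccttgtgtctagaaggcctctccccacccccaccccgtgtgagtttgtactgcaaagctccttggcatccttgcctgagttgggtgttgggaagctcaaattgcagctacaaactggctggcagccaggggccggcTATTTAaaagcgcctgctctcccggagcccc
IGFBP2, chr2:216633170-216633419, plus strand: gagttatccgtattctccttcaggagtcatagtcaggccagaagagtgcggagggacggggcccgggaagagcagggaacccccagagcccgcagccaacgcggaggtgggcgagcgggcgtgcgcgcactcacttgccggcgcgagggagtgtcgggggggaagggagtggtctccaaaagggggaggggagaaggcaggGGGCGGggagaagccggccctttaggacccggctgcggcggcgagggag
IGFBP3, chr7:45921273-45921522, minus strand: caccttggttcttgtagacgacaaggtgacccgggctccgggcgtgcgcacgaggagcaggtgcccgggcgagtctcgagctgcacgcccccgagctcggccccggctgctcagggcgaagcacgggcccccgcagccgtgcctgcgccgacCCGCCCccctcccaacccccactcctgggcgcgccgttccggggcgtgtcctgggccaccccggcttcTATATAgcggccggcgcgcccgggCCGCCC

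IGFBP5 and IGFBP3 each had the TATA-like letters, 31 and 30 bases before the start, and none of the 3 IGFBP2 starts had them in that window. IGFBP4 also had them, 29 bases before its start. Of the 35116 promoters in the RefSeq table, 6.42% held these letters in the window. Because the spelling was widened to take in IGFBP5, this share is given for scale and the members' count is not set against it. A GC box stood in 7 of the 11 promoters of the 8 members in the table, and the printed IGFBP5 promoter had none. Of all promoters 42.6% held a GC box, a share that is also given for scale only. This motif too was chosen after the sequences were seen, and IGFBP2 alone gives 3 of the 11 promoters. These matches are descriptions of letters and not of binding sites.

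IGFBP5, a matrix-associated binding protein that can either hold back or favour IGF action, had the highest ratio of the members. At its brightest probe set, 211959_at, the signal was 3042.5 with gefitinib and 3.8 with DMSO, at least 30.4-fold higher. At 203424_s_at the signal was 1084.8 with gefitinib and 14.7 with DMSO, at least 10.8-fold higher. At 211958_at the signal was 880.4 with gefitinib and 36.8 with DMSO, at least 8.80-fold higher. The DMSO signals were thus far under the floor at each of these probe sets, and the gefitinib signals well above it. The other IGFBP5 probe sets had lower gefitinib signals. Probe set 203425_s_at had 422.9 with gefitinib and 32.0 with DMSO, at least 4.23-fold higher. The bounds were at least 1.99-fold at 1555997_s_at, with signals of 198.7 with gefitinib and 2.9 with DMSO, and at least 1.63-fold at 203426_s_at, with 163.1 and 31.9. All 6 IGFBP5 probe sets were therefore under the floor with DMSO and above it with gefitinib. Each ratio could thus only lie above 1, and the size of each bound follows from the gefitinib signal alone.

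IGFBP2, a binding protein that is abundant in fetal tissue and in many carcinomas, was already bright in control cells. Its single probe set, 202718_at, had a signal of 15150.4 with gefitinib and 3636.1 with DMSO, 4.17-fold higher (log2 ratio 2.06). This ratio ranked IGFBP2 at 157 of the 10190 genes whose signals reached the floor with gefitinib and with DMSO, and no other probe set checks it. Over the 5 other scalings tried, its fold ran from 3.65 to 4.71.

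IGFBP3, the main carrier of IGFs in the circulation, was higher at both of its probe sets. At 210095_s_at the signal was 3073.6 with gefitinib and 794.3 with DMSO, 3.87-fold higher (log2 ratio 1.95, rank 205). At 212143_s_at the signal was 878.3 with gefitinib and 401.1 with DMSO, 2.19-fold higher (log2 ratio 1.13). The probe sets thus differed by 0.82 in log2 ratio, with an SD of 0.58 between them, close to the spread of 0.54 between probe sets of 1 gene over the 4610 genes with several above the floor. Such a spread says nothing of the variation between cultures. Over the other scalings the fold at 210095_s_at ran from 3.39 to 4.37.

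IGFBP4, which binds IGFs and is cut by the protease PAPPA, was near the floor. Probe set 201508_at had a signal of 169.6 with gefitinib and 68.1 with DMSO, at least 1.70-fold higher. This bound does not show whether IGFBP4 passed 2-fold. With a floor of 50 both signals were above the floor and the ratio was 2.49-fold, which made IGFBP4 the fourth member past 2-fold. At that floor 14.2% of all measured genes were at least 2-fold higher. IGFBP6, a binding protein with a preference for IGF2, had 20.4 with gefitinib and 65.6 with DMSO at its single probe set, both under the floor and so without order. The 3 IGFBP7 probe sets lay between 1.0 and 11.7 with gefitinib and between 8.7 and 17.6 with DMSO.

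**Figure D2:**
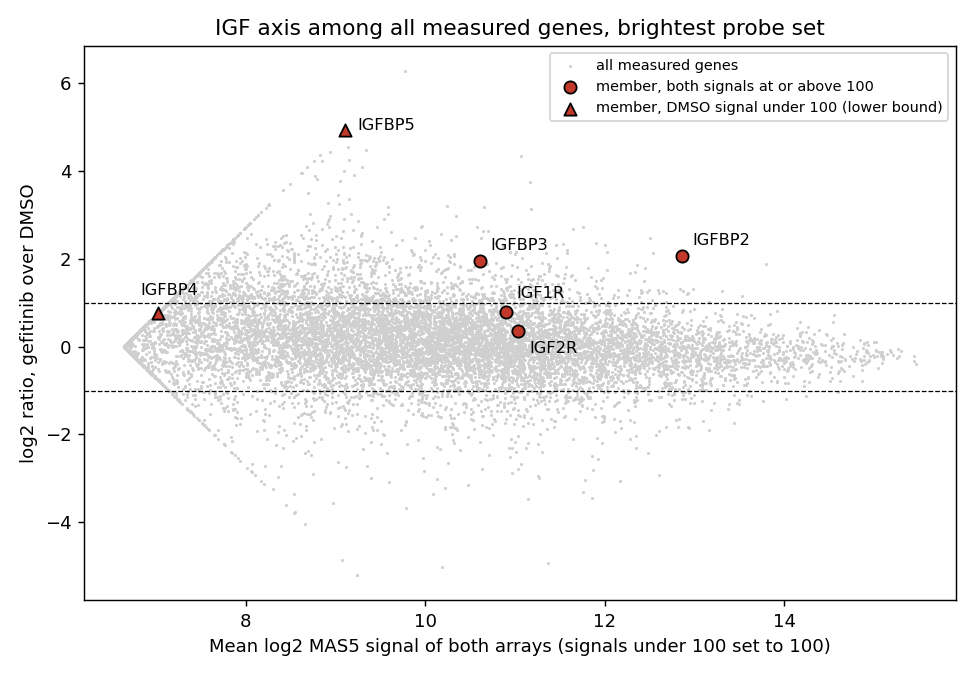
Each measured gene (11223 in all) by its log2 ratio, gefitinib over DMSO, on the vertical axis and its log2 MAS5 signal averaged over the arrays, after the floor of 100, on the horizontal axis, with the 6 measured members in red. Triangles are members whose DMSO signal was under 100 and whose ratio is a lower bound, dashed lines mark 2-fold, and IGFBP5, IGFBP2 and IGFBP3 lie above the upper one.

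The IGFBP2 and IGFBP5 genes follow each other directly among the protein-coding genes of chromosome 2 in the RefSeq annotation and are transcribed from opposite strands. The genes around them were looked up after these values had been seen. RPL37A, a ribosomal protein gene next to IGFBP2, had a signal of 39094.4 with gefitinib and 41780.6 with DMSO, a log2 ratio of -0.10. SMARCAL1, a DNA repair helicase gene beyond it, had 807.8 with gefitinib and 539.1 with DMSO, a log2 ratio of 0.58. On the IGFBP5 side TNP1, which encodes a sperm chromatin protein, was below the floor on both arrays. The next gene, TNS1, which encodes a focal adhesion protein, had 132.2 with gefitinib and 39.6 with DMSO, at least 1.32-fold higher. At their brightest probe sets none of these neighbours reached 2-fold as measured, and the bound of TNS1 does not settle it for that gene.

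Of the ligands, IGF1 was below the floor at all 5 of its probe sets, with signals from 4.3 to 39.7 with gefitinib and from 2.9 to 18.7 with DMSO. IGF2 could not be assigned a value, because the annotation gives its probe sets to IGF2 and to the read-through gene INS-IGF2 together. The signals of these 3 probe sets were not counted for any gene, and all were lower on the gefitinib array. At 202409_at the signal was 1200.0 with gefitinib and 3988.6 with DMSO, 3.32-fold lower. At 202410_x_at it was 328.0 with gefitinib and 921.3 with DMSO, 2.81-fold lower. At 210881_s_at it was 248.8 with gefitinib and 526.2 with DMSO, 2.11-fold lower, which became 1.92-fold after centring on control probe sets and 1.87-fold after GAPDH scaling. The array thus detected RNA from this shared locus on both arrays, with the direction opposite to that of the binding proteins.

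The receptors were bright on both arrays and within 2-fold. The IGF1R probe sets went in different directions. At 225330_at the signal was 2498.0 with gefitinib and 1455.9 with DMSO, a log2 ratio of 0.78. At 203627_at the signal was 1179.2 with gefitinib and 1405.0 with DMSO (log2 ratio -0.25), and at 203628_at it was 426.0 with gefitinib and 414.8 with DMSO (log2 ratio 0.04). The SD between these probe sets was 0.53, larger than their mean log2 ratio of 0.19. The other 2 IGF1R probe sets were below the floor, with signals of at most 35.2 with gefitinib and 35.0 with DMSO. IGF2R was higher by less than 2-fold at both measured probe sets. At 201393_s_at the signal was 2373.0 with gefitinib and 1863.8 with DMSO (log2 ratio 0.35), and at 201392_s_at it was 973.0 with gefitinib and 676.0 with DMSO (log2 ratio 0.53). The remaining IGF2R probe set was below the floor on both arrays. In such bulk samples more RNA per cell and more cells with the RNA cannot be told apart, for these genes or for the binding proteins.

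**Figure D3:**
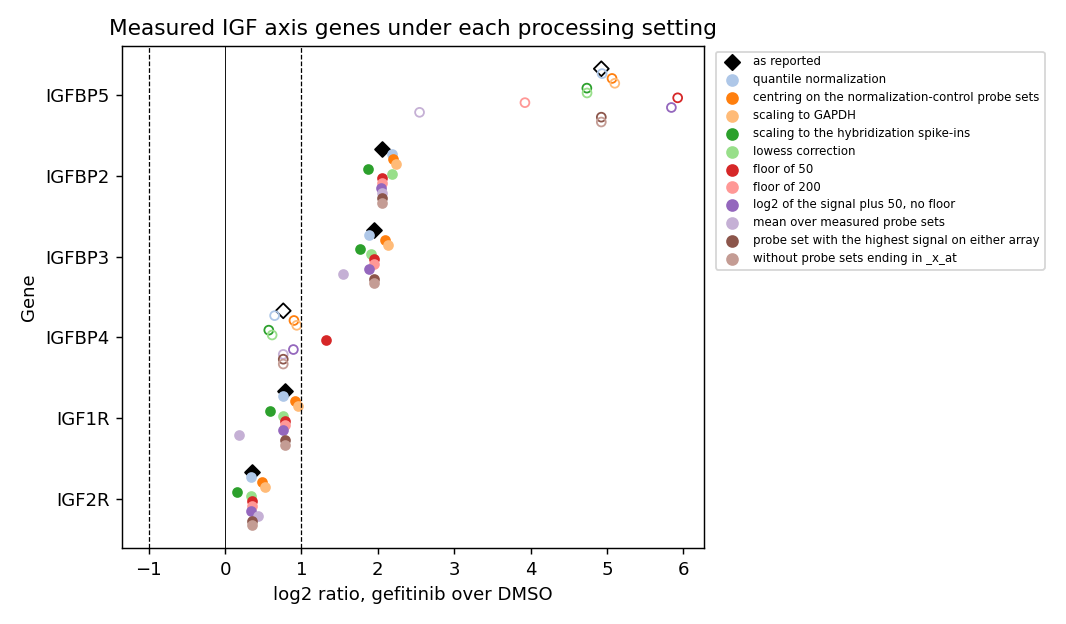
Log2 ratio of gefitinib over DMSO (horizontal axis) for the 6 measured members under the reported setting (black diamonds) and 11 alternative settings (circles), with open symbols where a signal was under the floor in use (or under 100 without a floor) and for the means of probe sets that include such values. Dashed lines mark 2-fold; IGFBP5, IGFBP2 and IGFBP3 stay to the right of the upper one at every setting, while IGFBP4 crosses it with a floor of 50.

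Beyond the members, 44 genes of the IGF pathway were followed in 4 lists. Of these, 28 were measured, 8 were at least 2-fold higher and 3 at least 2-fold lower on the gefitinib array, with a median log2 ratio of 0.17. LRP1 and CCN2 passed the floor only through the gefitinib array, so they could only come out higher. STC1 and ADAM28 passed it only through the DMSO array, so they could only come out lower. Over all measured genes the shares were 13.3% higher and 6.20% lower and the median was 0.12. The lists were chosen with earlier results of these data known, so these shares are given for scale and the counts are not tested against them.

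The first list holds proteins that release IGFs from the binding proteins, that cut or bind the binding proteins themselves, or that inhibit such a protease. Of its 12 genes 7 were measured, with 2 at least 2-fold higher and 2 at least 2-fold lower (13.3% and 6.20% of all measured genes). HTRA1, a secreted serine protease that can cut IGFBP5, had a signal of 1973.5 with gefitinib and 426.6 with DMSO at its single probe set, 4.63-fold higher. LRP1, an endocytic receptor that binds IGFBP3, had 373.7 with gefitinib and 99.4 with DMSO at 200785_s_at, at least 3.74-fold higher, and was at least 1.45-fold higher at 200784_s_at. Both LRP1 probe sets passed the floor only through the gefitinib array, so their ratios could only lie above 1. STC1, a secreted inhibitor of PAPPA, was lower at all 3 of its probe sets. Its brightest, 204595_s_at, had 42.1 with gefitinib and 1221.1 with DMSO, at least 12.2-fold lower. The bounds at the other STC1 probe sets were at least 9.12-fold and at least 3.34-fold lower. All 3 passed the floor only through the DMSO array, so their ratios could only lie below 1. ADAM28, a metalloproteinase that can cut IGFBP3, had 80.8 with gefitinib and 468.0 with DMSO at 205997_at, at least 4.68-fold lower, and its other 3 probe sets were below the floor.

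The proteases that cut IGFBP4 and IGFBP5 in the circulation and placenta, PAPPA and PAPPA2, were below the floor at all of their probe sets, and so was IGFALS, the subunit that joins IGFBP3 and IGF in serum. STC2, which like STC1 inhibits PAPPA, gave opposite answers at its probe sets. At 203439_s_at, the brightest over both arrays, the signal was 929.8 with gefitinib and 1124.9 with DMSO, a log2 ratio of -0.27. At 203438_at it was 1629.2 with gefitinib and 467.7 with DMSO, 3.48-fold higher. No direction can be given for STC2 from these values. ADAM9, another metalloproteinase of this list, had a log2 ratio of 0.40 at 202381_at, its brightest probe set, but of -0.22 at 1555326_a_at. At 1570042_a_at, near the floor with 71.8 with gefitinib and 117.7 with DMSO, ADAM9 was at least 1.18-fold lower. That ratio could only lie below 1. TMEM219, a receptor for IGFBP3, had a log2 ratio of 0.23.

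The second list, the insulin receptor with the adaptors and feedback proteins it shares with IGF1R, had 13 measured genes of 15. At least 2-fold higher were 4 of them, and 1 was at least 2-fold lower. Over all measured genes the shares were 13.3% higher and 6.20% lower. IRS1, the adaptor that carries the signal of IGF1R to PI3K, had 1674.2 with gefitinib and 592.0 with DMSO at 204686_at, 2.83-fold higher. At 242979_at it had 365.6 with gefitinib and 58.7 with DMSO, at least 3.66-fold higher. That probe set passed the floor only through the gefitinib array, so its ratio could only lie above 1. INSR, the insulin receptor, had 1127.8 with gefitinib and 496.6 with DMSO at 213792_s_at, 2.27-fold higher. All 5 INSR probe sets were higher, with log2 ratios from 0.50 to at least 1.20. The last is a bound, as 226212_s_at had 229.4 with gefitinib and 77.3 with DMSO, so its ratio could only lie above 1. With this bound taken as a ratio the mean was 0.88, under 2-fold, and is itself a lower bound. GRB14, an adaptor that inhibits the insulin receptor kinase, had 1345.1 with gefitinib and 534.2 with DMSO, 2.52-fold higher. PIK3R3, a regulatory subunit of PI3K, had 3356.7 with gefitinib and 1512.5 with DMSO at 202743_at, 2.22-fold higher, and a second probe set at 1.09-fold. With scaling to the hybridization spike-ins INSR was 1.99-fold higher and PIK3R3 1.95-fold higher, both under the threshold.

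SOCS3, a feedback inhibitor of cytokine receptors that also binds the insulin receptor, was lower. Its signal at 227697_at was 111.7 with gefitinib and 467.4 with DMSO, 4.18-fold lower, and at 206359_at it was at least 1.94-fold lower. Probe set 206359_at passed the floor only through the DMSO array, so its ratio could only lie below 1. The brightest of the other adaptors were within 2-fold at the probe set that stood for the gene. IRS2 had 6702.1 with gefitinib and 6204.8 with DMSO (log2 ratio 0.11), SHC1 had 6206.8 with gefitinib and 10395.7 with DMSO (log2 ratio -0.74), and GRB2 had 3371.8 with gefitinib and 4017.0 with DMSO (log2 ratio -0.25). At a dimmer probe set, 201469_s_at, SHC1 had 244.4 with gefitinib and 696.4 with DMSO, 2.85-fold lower. At 215075_s_at GRB2 had 548.2 with gefitinib and 1164.2 with DMSO, 2.12-fold lower, while 228572_at had a log2 ratio of 0.12. The adaptors IRS1 and IRS2 thus differed, with IRS1 past 2-fold and IRS2 close to even.

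The third list holds the IGF2 mRNA-binding proteins with their regulator HMGA2 and the imprinted RNA H19, for which no probe set with a single gene was found. All 4 measured genes were within 2-fold at their brightest probe set. IGF2BP2 had 5340.5 with gefitinib and 5968.5 with DMSO (log2 ratio -0.16), IGF2BP3 had 3942.3 with gefitinib and 3734.2 with DMSO (log2 ratio 0.08), and HMGA2 had 2694.8 with gefitinib and 3248.2 with DMSO (log2 ratio -0.27). IGF2BP1, named here after its values were seen, had a log2 ratio of 0.94 at 227377_at and of -1.69 at 223689_at, so its probe sets disagreed.

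The fourth list holds other proteins with a domain like that of the binding proteins. Only 4 of its 12 genes were measured, and 2 of them were at least 2-fold higher (13.3% of all measured genes were). CCN2, a matricellular protein, had 597.6 with gefitinib and 99.9 with DMSO at its single probe set, at least 5.98-fold higher. Having passed the floor only through the gefitinib array, CCN2 could only come out higher. KAZALD1, a secreted protein of bone and other tissues, had 396.1 with gefitinib and 115.2 with DMSO at 217511_at, 3.44-fold higher. At 1568598_at KAZALD1 had 85.6 with gefitinib and 109.5 with DMSO, at least 1.10-fold lower. That probe set passed the floor only through the DMSO array, so its ratio could only lie below 1. CRIM1, a membrane protein that binds BMPs, had log2 ratios from 0.72 to 0.86 at its 3 probe sets, and CCN1 had a signal of 2602.4 with gefitinib and 2607.5 with DMSO.

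**Figure D4:**
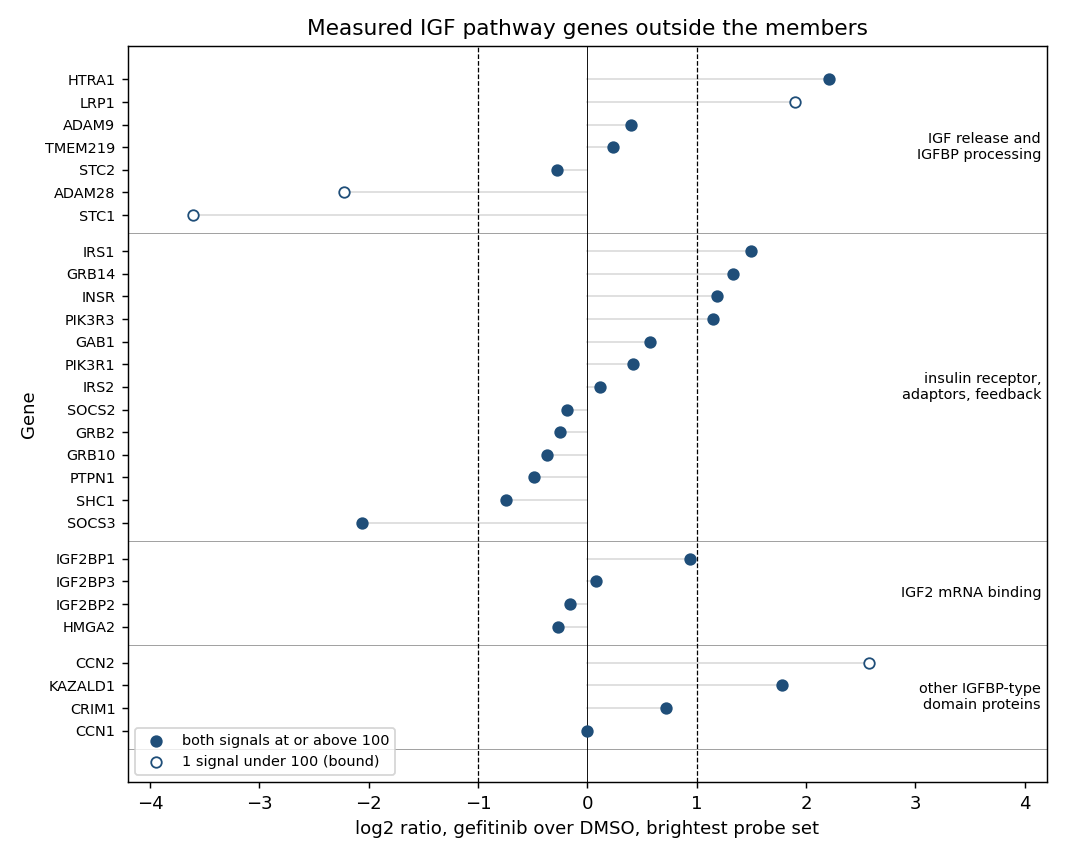
Log2 ratio of gefitinib over DMSO (horizontal axis) at the brightest probe set of the 28 measured IGF pathway genes outside the members, grouped by list. Open circles have 1 signal under 100 and are bounds, and dashed lines mark 2-fold; 8 genes lie to the right of the upper line and 3 to the left of the lower one.

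The control facts of the arrays that bear on these values are as follows. All 5 epithelial markers were bright, with brightest signals from 15823.9 to 30962.3 with gefitinib and from 14038.1 to 38923.3 with DMSO. None of 4 leukocyte markers reached the floor. Of 5 fibroblast markers, 1 did: COL1A1 had 950.2 with gefitinib and 420.8 with DMSO at its brightest probe set, while COL1A2, COL3A1, DCN and LUM stayed at or below 44.5 on both arrays. Of 3 endothelial markers, CDH5 was below the floor, PECAM1 reached it with DMSO at 1 of 5 probe sets, and VWF had 496.0 with gefitinib and 30.0 with DMSO. Sums took 1 probe set per gene and counted signals under the floor as 100. The fibroblast list summed to 1350.2 with gefitinib and 820.8 with DMSO, and the endothelial list to 696 with gefitinib and 328.4 with DMSO. The fibroblast sums differed through COL1A1 alone, and the higher endothelial sum with gefitinib came from VWF alone. COL1A1 had 329.4 with gefitinib and 110.8 with DMSO at 202310_s_at, but 587.1 and 531.4 at 217430_x_at. The VWF probe set 233980_s_at was below the floor, with 6.3 with gefitinib and 6.8 with DMSO. The part of fibroblast or endothelial cells in the values of IGFBP5 and IGFBP3 was not tested. Scaling each array by 1 other factor, before the floor is applied, moves the log2 ratio of signals above the floor by -0.19 with the spike-ins, 0.14 with control probe sets and 0.18 with GAPDH. Quantile normalization and lowess move genes by different amounts, for example KAZALD1 to 1.59 and 1.52 in log2 ratio, against 1.78 as deposited. Of all genes past 2-fold, 68.2% were higher as deposited, 50.5% with spike-in scaling, 57.6% with lowess correction, 59.6% with quantile normalization, 78.3% with control probe sets and 80.4% with GAPDH.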

How the data were processed

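RNA from 1 gefitinib and 1 DMSO culture was hybridized to Affymetrix U133 Plus 2.0 arrays. The authors deposited signal intensities on a linear scale, and the submitters' processing notes name MAS5 with no version. This method subtracts background and mismatch signal and scales each array by 1 factor, and the 2% trimmed mean of both deposited columns was 500.1, so a change common to most transcripts could not be seen. The annotation gave 41097 of 54675 probe sets 1 gene, 1801 several and 11777 none. For 41043 probe sets the symbol was matched by gene identifier to RefSeq (GRCh38.p14).

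Signals under 100 were set to 100 before log2 ratios (gefitinib over DMSO) were computed. The brightest probe set, by mean log2 signal, stood for a gene, and a difference was counted from 2-fold. No p-value was computed, since each condition has 1 array, and precision is limited by that number. The members, lists and alternatives were chosen with earlier results of these data known. All members were named, and from each other list every gene past 2-fold and up to 3 others with the highest mean signal. IGF2BP1, PAPPA, PAPPA2, IGFALS and the neighbours of IGFBP2 and IGFBP5 were named outside this rule. No likeness of pattern between genes was computed from 2 arrays.

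Alternatives were quantile normalization, centring on 100 control probe sets, scaling to GAPDH or to the spike-ins, lowess (span 0.3), floors of 50 and 200, no floor with 50 added to each signal, other choices of probe set, and thresholds of 1.5 and 3. The procedure was tested on simulated data. No protein table was used here, so the planned protein sequences were replaced by promoters, and the motifs were chosen after the data were seen. The tools were Python 3.11.15 with pandas 2.3.3, numpy 2.4.6, statsmodels 0.14.6, matplotlib 3.10.9 and scipy 1.17.1.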

Additional observations from a re-analysis of the deposited data

How the results depend on the processing

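The calls of IGFBP5, IGFBP2 and IGFBP3 at 2-fold held under the 11 alternatives for normalization, floor and probe set. No measured member was at least 2-fold lower under any of them, and IGF2, without a probe set of its own, is outside this count. Not every alternative could change a call. IGFBP2 has 1 probe set with signals far above each floor, so the floors and choices of probe set left its log2 ratio at 2.06. The floors of 50 and 200 likewise left IGFBP3 at 1.95. The number of members past the threshold was 5 with a threshold of 1.5, where IGFBP4 and IGF1R were added and 26.4% of all measured genes were higher, and 3 with a threshold of 3, where 4.78% of all were. With a floor of 200 IGFBP4 was not measured and the median log2 ratio of the members became 1.95, over fewer genes. The bound of IGFBP5 follows the floor: its log2 ratio was 5.93 with a floor of 50 and 3.93 with a floor of 200, and it was 2.55 as the mean over its probe sets. Of the pathway genes outside the members, 5 were at least 2-fold higher with the mean over probe sets (11.0% of all measured genes) and 4 passed a threshold of 3 (4.78% of all), against 8 as reported (13.3% of all). INSR, PIK3R3 and KAZALD1 fell below 2-fold with the mean over probe sets, and SHC1 passed it (log2 ratio -1.13). The means of INSR and KAZALD1 include a probe set with 1 signal under the floor. With a floor of 200 the bounds of LRP1 and KAZALD1 were 1.87-fold and 1.98-fold. IGF2BP1 passed 2-fold after centring on control probe sets (2.12-fold) and after GAPDH scaling (2.17-fold), and STC2 did with the probe set brightest on either array (3.48-fold). Signals under the floor limit what can be said of IGF1, IGFBP6 and IGFBP7.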
